A study of Mus musculus with 9 samples.

Results

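The 10 major urinary protein genes examined here were Mup1, Mup2, Mup3, Mup7, Mup9, Mup10, Mup11, Mup14, Mup20 and Mup21, of 20 Mup rows among the 23337 genes of the table. They were chosen by name, from a list drawn up with earlier results of these livers in view: Mup7 and Mup1 were among the largest differences between the hepatocyte knockout and its controls. Their levels against the controls are therefore given as a description, with no p-value, and nothing is read from how many of them were called against the controls. Stranded sequencing of poly(A) RNA was done on whole livers of C57BL/6 mice that were 6 to 8 weeks old when a high-fat diet began and had received it for 16 weeks. Livers of 3 mice labelled PAR2 KO, which lack protease-activated receptor 2 in the whole body (KO), and 3 mice labelled PAR2dHep, which lack it in hepatocytes (dHep), were set against livers of 3 floxed PAR2fl/fl mice with an intact receptor (WT). Clotting and other proteases activate PAR2 by cutting its outer end, and the title of the series links it to blood lipids, obesity, steatotic liver disease and HNF4A, a hepatocyte transcription factor. The Cre driver, the KO allele, the sex and the littermate status of the mice are not given in the sources used here.

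Major urinary proteins are small secreted lipocalins, barrel-shaped carriers that hold volatile pheromones in their cavity. Hepatocytes make them in large amounts, and the kidney passes them into the urine, where they mark the owner. In mouse liver their transcripts are abundant in males and scarcer in females, under growth hormone pulses acting through the transcription factor STAT5B, with testosterone and thyroid hormone. They lie in 1 cluster of recent duplicates, and MUP1 has also been studied as a circulating regulator of glucose metabolism in obese mice.

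Libraries held 18683660 to 30509242 reads assigned to genes. F2rl1, the gene of PAR2, had 71, 103 and 76 reads in the libraries labelled KO, 2, 8 and 0 reads in dHep and 17, 27 and 28 reads in WT. Counts are per whole gene, but the level in the libraries labelled KO was above that of WT, against the label, so every direction drawn from them below is one of libraries so labelled. Xist had 0 to 3 reads and the Y-linked Ddx3y 1080 to 2583 reads per library in all 9, the pattern of male livers. The 7 hepatocyte markers in the table summed to 104582 to 116366 CPM (reads scaled to TMM-adjusted library size) in KO, 106353 to 151063 CPM in dHep and 95705 to 100762 CPM in WT, none at 0. The 12 pancreatic acinar markers, none at 0, summed to 80.1 to 83.3 CPM in KO, 77.9 to 1846 CPM in dHep and 12.6 to 473 CPM in WT, with the highest values in dHep replicate 2 and WT replicate 1. The 11 skeletal muscle markers reached 700 CPM in dHep replicate 2 and at most 59.6 CPM elsewhere. The 5 macrophage markers in the table, none at 0, summed to 50.5 to 96.4 CPM in KO, 129 to 226 CPM in dHep and 203 to 251 CPM in WT. The 5 endothelial markers summed to 104 to 143, 105 to 176 and 207 to 228 CPM in KO, dHep and WT, the 5 stellate markers to 75.7 to 96.8, 107 to 199 and 154 to 189 CPM, and the 5 cholangiocyte markers to 8.37 to 30, 3.39 to 12.2 and 3.96 to 7.66 CPM. Of 11 salivary and lacrimal gland markers in the table, 6 had no read in any library, Smr3a and Lpo among them, and the list summed to 1787 to 2333 CPM in KO, 2178 to 3091 CPM in dHep and 1746 to 1839 CPM in WT. Of 6 kidney markers, 4 had no read, Slc34a1 and Aqp2 among them, and the list summed to 5.12 to 9.98 CPM in KO, 0.63 to 3.38 CPM in dHep and 0.25 to 0.376 CPM in WT, without overlap between groups. The part of these cell types in the Mup levels was not tested.

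How far the members can be told apart by sequence bears on every value that follows, so the most variable 60 coding bases are shown for each. The stretches below start at coding base 212 of Mup1 (bases counted from the A of the start codon), come from GENCODE M21 transcripts on chromosome 4 of GRCm38, run 5′ to 3′, and have in capitals each base that differs from Mup1.
Mup1: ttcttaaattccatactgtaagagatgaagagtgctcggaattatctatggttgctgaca
Mup2: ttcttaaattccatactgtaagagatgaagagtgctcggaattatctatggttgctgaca
Mup7: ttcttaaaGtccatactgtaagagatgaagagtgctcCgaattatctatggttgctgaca
Mup9: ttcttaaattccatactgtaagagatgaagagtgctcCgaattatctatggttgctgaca
Mup10: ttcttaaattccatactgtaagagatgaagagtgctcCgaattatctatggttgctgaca
Mup11: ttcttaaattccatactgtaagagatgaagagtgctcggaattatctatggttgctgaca
Mup14: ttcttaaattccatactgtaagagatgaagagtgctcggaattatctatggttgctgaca
Mup20: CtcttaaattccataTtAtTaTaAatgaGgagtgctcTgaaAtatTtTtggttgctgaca
Mup3: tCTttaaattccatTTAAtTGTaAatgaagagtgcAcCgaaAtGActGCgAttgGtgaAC
Mup21: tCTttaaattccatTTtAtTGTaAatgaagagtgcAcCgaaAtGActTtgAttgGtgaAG
Across the 60 bases, 25 positions varied among the 10 members. Mup2, Mup11 and Mup14 had the same letters as Mup1, Mup9 and Mup10 differed from it at 1 base, and Mup7 at 2 bases. Mup20 differed at 11, Mup21 at 19 and Mup3 at 21 bases. Over the whole coding part, the 7 members Mup1, Mup2, Mup7, Mup9, Mup10, Mup11 and Mup14 were 98.3% to 99.6% identical to each other, with 2 to 9 differing positions in any pair. Mup20 was 90.1% to 91.3% identical to these 7, Mup21 83.6% to 84.7% and Mup3 82.1% to 83.3%. Mup3 and Mup21 were 94.7% identical. The 7 near-identical members are described together below, beside Mup20, Mup3 and Mup21.

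The table was counted with featureCounts without its options for reads that map to several places or overlap several rows, and by default such reads are not counted. Of the 75-base stretches of each transcript, the share found in no other gene's transcripts was 93.2% for Mup3, 89.7% for Mup21 and 56.4% for Mup20, but 14.3% for Mup11, 14.2% for Mup10, 11.3% for Mup9, 9.5% for Mup1, 8.32% for Mup7, 5.41% for Mup14 and 0% for Mup2. Read length is not given in the sources used here; with stretches of 100 bases these shares ran from 2.66% for Mup2 to 97.1% for Mup3. All 10 members lie on the minus strand of chromosome 4 between bases 60066469 and 62150841 of mm10. In the table's annotation 97.4% of the exon bases of Mup11 are shared with other rows, mainly Gm2083 and Mup2, which leaves 24 bases of its own. The shared part was 70.7% for Mup2, 55.2% for Mup14, 49.7% for Mup7 and 28.6% for Mup10, and 0% for Mup1, Mup3, Mup9, Mup20 and Mup21. Levels of the 7 near-identical members therefore count only the reads that could be placed. An order among them, or between them and Mup3, Mup20 or Mup21, is uncertain. Their sum leaves out the reads that fit several copies, and so do the shares and ranks given below.

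The 10 members together took a larger part of the liver's messenger RNA reads in both knockout groups than in the controls. They held 3.72%, 4.44% and 4.49% of assigned reads in the libraries labelled KO, 2.62%, 1.48% and 2.25% in dHep, and 1.1%, 0.634% and 0.634% in WT. On the normalised scale the sums were 38914, 45364 and 48450 CPM in KO, 23999, 15920 and 25446 CPM in dHep, and 10136, 5927 and 5781 CPM in WT. The groups did not overlap: every KO library lay above every dHep library, and every dHep library above every WT library. The mean log2 of the sum was 15.43 ± 0.16 in KO, 14.38 ± 0.37 in dHep and 12.78 ± 0.46 in WT (SD, n = 3 each), a difference of 2.65 for KO against WT (6.27-fold), 1.6 for dHep against WT (3.04-fold) and 1.05 for KO against dHep (2.06-fold). Within groups, WT replicate 1 was the highest control and dHep replicate 2 the lowest dHep liver, and these are the livers with the highest pancreatic marker sums. Without both, the difference of dHep against WT was 2.08. In whole liver, fewer cells that make a transcript and less of it per cell cannot be told apart.

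**Figure D1:**
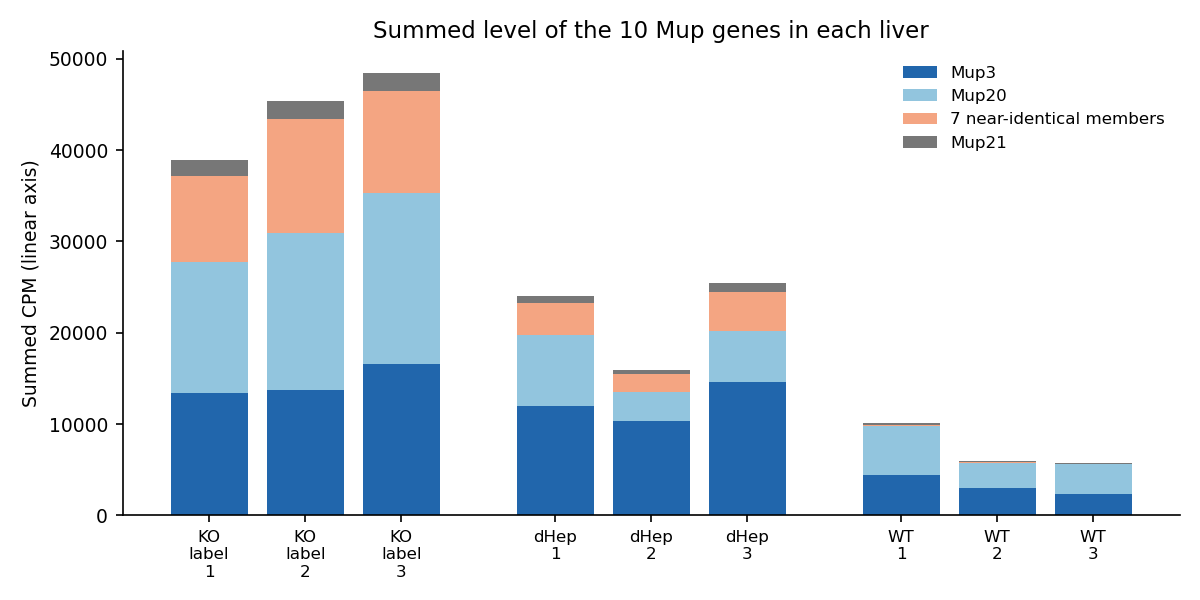
Summed CPM (linear axis) of the 10 Mup genes in each liver, for 3 libraries labelled KO, 3 dHep and 3 WT libraries, stacked by gene. Bars reached 38914 to 48450 CPM in KO, 15920 to 25446 CPM in dHep and 5781 to 10136 CPM in WT, and the band of the 7 near-identical members is broad in KO and dHep and at most a thin line in WT.

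Mup3, a liver-expressed member that is among the most divergent by sequence, had the highest counted level in dHep. It had 13415, 13777 and 16521 CPM in the libraries labelled KO, 11935, 10380 and 14569 CPM in dHep, and 4371, 3048 and 2370 CPM in WT. Its KO and dHep levels overlapped, and both lay above all WT livers. By level per kilobase of exon, Mup3 ranked 4th among all genes in each KO library, 4th, 3rd and 3rd in dHep and 9th, 15th and 18th in WT. The fitted log2 fold change was 2.16 ± 0.28 (SE) for KO against WT and 1.91 ± 0.28 for dHep against WT.

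Mup20 encodes darcin, the male urinary pheromone that attracts females and lets them learn a male's scent. It had 14378, 17104 and 18748 CPM in the libraries labelled KO, 7808, 3140 and 5670 CPM in dHep, and 5416, 2735 and 3288 CPM in WT. The KO livers stood above all others, while the dHep and WT ranges overlapped. Its log2 fold change was 2.13 ± 0.38 for KO against WT, 0.54 ± 0.36 for dHep against WT and 1.6 ± 0.37 for KO against dHep. Without WT replicate 1 and dHep replicate 2, the value for dHep against WT was 1.16.

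The 2 members with the highest counted levels thus stood in a different proportion in dHep livers. Per kilobase of exon, the level of Mup20 over that of Mup3 was 1.1, 1.27 and 1.16 in the libraries labelled KO, 0.67, 0.31 and 0.399 in dHep, and 1.27, 0.92 and 1.42 in WT. All dHep ratios lay below all others, while KO and WT ratios overlapped. Of the summed CPM, Mup20 made up 37.8% ± 0.877 in KO, 24.8% ± 6.78 in dHep and 52.2% ± 5.48 in WT, and Mup3 33% ± 2.27, 57.4% ± 7.73 and 45.2% ± 5.51 (SD, n = 3 each). This ratio was chosen after its values were seen, and no test of it was made.

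**Figure D2:**
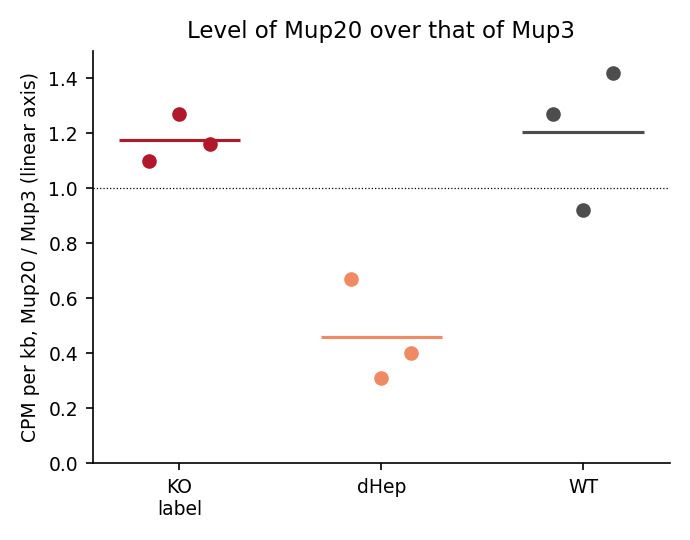
Level of Mup20 divided by that of Mup3, both as CPM per kilobase of exon (linear axis), in each of 3 libraries labelled KO, 3 dHep and 3 WT libraries, with bars at the group means. The dHep points lie between 0.31 and 0.67, below the KO points at 1.1 to 1.27 and the WT points at 0.92 to 1.42.

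The 7 near-identical members were low in controls and formed a visible part of the sum in both knockouts. Together they had 9317, 12519 and 11212 CPM in the libraries labelled KO, 3475, 1997 and 4172 CPM in dHep, and 109, 13.9 and 7.06 CPM in WT. The WT livers differed among themselves by more than the other groups did, with replicate 1 far above the other two. On the log2 scale the sum was 8.95 higher in KO than in WT and 7.12 higher in dHep than in WT, or 10.11 and 8.27 without WT replicate 1. It was 1.83 higher in KO than in dHep.

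Among the reads that could be placed, Mup7 carried most of this sum, though the order among the near-identical members is uncertain. It had 7265, 9519 and 8644 CPM in the libraries labelled KO, 3038, 1869 and 3523 CPM in dHep, and 73.5, 5.37 and 3.28 CPM in WT. Its share of the members' sum was 19.2% ± 1.63 in KO, 12.7% ± 1.06 in dHep and 0.291% ± 0.377 in WT (SD, n = 3 each), the change in make-up that the stacked plot shows. By level per kilobase it ranked 11th, 7th and 9th of all genes in KO and 18th, 40th and 21st in dHep, against rank 845, 6173 and 7684 in WT. The log2 fold change was 8.27 ± 1.2 for KO against WT and 6.68 ± 1.1 for dHep against WT. Without WT replicate 1 these values were 10.93 and 9.34.

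Mup14, which differs from Mup7 at 5 coding positions, showed the widest step between the knockout groups. It had 1607, 2387 and 2061 CPM in the libraries labelled KO, 201, 61.8 and 437 CPM in dHep, and 25.7, 5.67 and 2.78 CPM in WT. No groups overlapped, and dHep livers differed 7.06-fold among themselves, against 1.49-fold in KO. Its log2 fold change was 7.47 ± 1.0 for KO against WT, 4.36 ± 0.89 for dHep against WT and 3.11 ± 0.84 for KO against dHep. Without WT replicate 1 the values against WT were 8.90 for KO and 5.79 for dHep, and without dHep replicate 3 those with dHep were 3.53 against WT and 3.94 for KO against dHep.

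Mup1, the member studied as a metabolic signal, had 441, 602 and 500 CPM in the libraries labelled KO, 232, 63.5 and 204 CPM in dHep, and 8.90, 2.15 and 0.677 CPM in WT. Again no groups overlapped. The log2 fold change was 7.04 ± 0.87 for KO against WT and 5.42 ± 0.82 for dHep against WT, or 8.51 and 6.88 without WT replicate 1.

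Mup21, close to Mup3 by sequence and mostly made of stretches found in no other gene, had 1804, 1963 and 1969 CPM in the libraries labelled KO, 780, 404 and 1035 CPM in dHep, and 240, 130 and 116 CPM in WT. The groups did not overlap, and the 3 KO livers were within 1.09-fold of each other. Its log2 fold change was 3.56 ± 0.38 for KO against WT and 2.19 ± 0.36 for dHep against WT. Without WT replicate 1 and dHep replicate 2 together, the value for dHep against WT was 2.89.

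The remaining 4 members had few reads, and each passed the low-count filter only through the knockout groups. Mup10 had 60, 106 and 54 reads in the libraries labelled KO, 70, 34 and 118 in dHep, and 21, 14 and 6 in WT. Mup2 had 11, 23 and 16 reads in KO, 26, 6 and 13 in dHep, and 6, 5 and 3 in WT. In both genes the KO and dHep levels overlapped and lay above WT. Their log2 fold changes were 2.81 ± 0.61 and 2.23 ± 0.54 for KO against WT, and 2.58 ± 0.60 and 1.67 ± 0.54 for dHep against WT. That of Mup10 in dHep was 1.78 without dHep replicate 3. Mup2 was not called in dHep in 8 of 9 fits that left out 1 library, all but that without dHep replicate 2.

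Mup9 had 11, 86 and 24 reads in the libraries labelled KO, 17, 8 and 15 in dHep, and 1, 1 and 0 in WT. Mup11 had 28, 39 and 21 reads in KO, 19, 13 and 19 in dHep, and 2, 0 and 0 in WT. With 2 WT reads in all for each, the ratio to WT of Mup9 was 81.3 in KO (95% interval 22 to 679) and 20.8 in dHep (5.39 to 177). For Mup11 it was 59.2 in KO (15.9 to 496) and 26.5 in dHep (6.96 to 225). These intervals cover counting error only. KO replicate 2 held most of the Mup9 reads, and the row of Mup8, a Mup gene outside the 10, was high in the same library, at 187 CPM against 22.9 CPM in the lowest KO library.

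**Figure D3:**
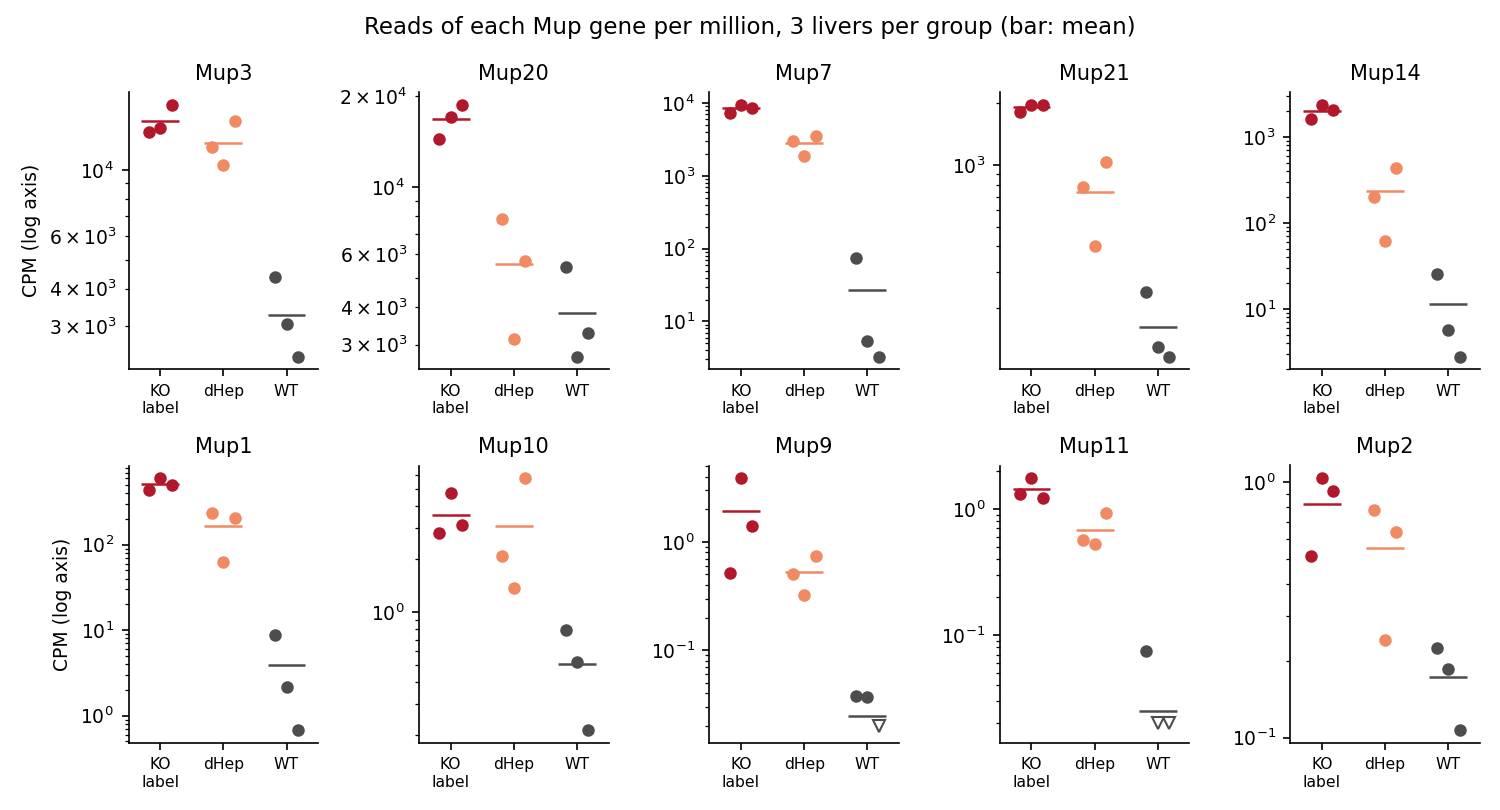
CPM (log axis, its own range in each panel) of each of the 10 Mup genes in 3 libraries labelled KO, 3 dHep and 3 WT libraries, with bars at the group means and open triangles for libraries without a read. Mup20 is the only panel in which dHep and WT points overlap, and in Mup3, Mup10, Mup9 and Mup2 the KO and dHep points overlap.

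All 9 libraries entered 1 edgeR fit of 13141 genes, with a call at an adjusted p under 0.05. Against WT, 10 of 10 members were called higher in the libraries labelled KO, where 20.9% of all genes tested were called higher and 22.1% lower. In dHep 9 of 10 were called higher than in WT, all but Mup20, where 12.4% of all genes were called higher and 11.9% lower. These counts include Mup2, Mup9, Mup10 and Mup11, which passed the low-count filter only through the knockout groups. Their calls against WT are thus not independent of the filter. Both comparisons use the same WT libraries. Nothing is read from these counts, since the differences of both knockout groups from WT were in view when the genes were chosen. When 1 library was left out, the count stayed at 10 for KO against WT and ran from 6 to 9 for dHep against WT, with 6 without WT replicate 2 and 6 without WT replicate 3.

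The contrast of the libraries labelled KO with dHep asks whether the members differed between whole-body and hepatocyte loss. Both contrasts with WT were in view when the genes were chosen, and this contrast is the difference between them. Its counts and p-values are therefore not independent of the choice and are given as a description. Called higher in KO were 3 of 10 members and called lower 0, against 4.23% and 5.39% of all genes. In edgeR's quasi-likelihood test the adjusted p was 0.0282 for Mup20, 0.0413 for Mup21, whose log2 fold change was 1.37 ± 0.35, and 0.0464 for Mup14. For Mup9 (1.90 ± 0.67), Mup1 (1.63 ± 0.67), Mup7 (1.59 ± 0.91) and Mup11 (1.10 ± 0.46) the adjusted p in this fit was 0.104, 0.150, 0.281 and 0.154. For Mup2 (0.56 ± 0.47), Mup3 (0.25 ± 0.27) and Mup10 (0.23 ± 0.54) it was 0.465, 0.579 and 0.809. These calls rested on few libraries: 0 members were called without KO replicate 2 or without KO replicate 3, 1 without dHep replicate 1, dHep replicate 2, WT replicate 2 or WT replicate 3, and 4, Mup7 included, without WT replicate 1. The value of Mup9 fell to 0.86 without KO replicate 2, and that of Mup10 turned to -0.12 without dHep replicate 2 and -0.04 without KO replicate 2.

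**Figure D4:**
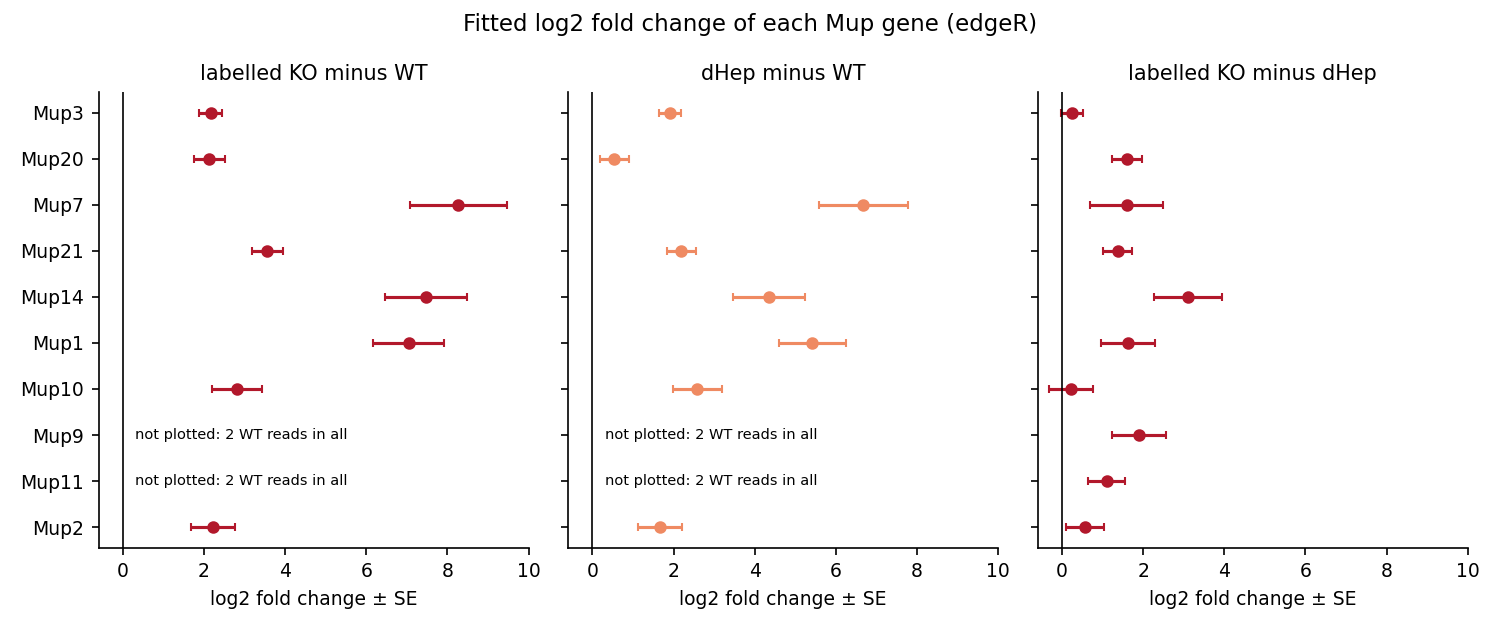
Fitted log2 fold change (linear axis) with its SE for each of the 10 Mup genes in the 3 contrasts, from 1 edgeR fit of 9 libraries. Mup9 and Mup11 are not plotted against WT, where they have 2 reads in all, and Mup20 at 0.54 ± 0.36 lies nearest to 0 in dHep against WT.

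Of the other 10 Mup rows of the table, 6 passed the filter, and Mup4, Mup16, Mup17 and Mup19 did not, with at most 14 reads in any group. These rows share sequence with the members, so reads could be placed in either. In WT libraries Mup5 had 8, 3 and 4 reads and Mup6 26, 6 and 5 reads, so both passed through the knockout libraries, and no count of calls against WT is given for these rows. Called higher in KO than in dHep were Mup8 and Mup12, where 4.23% of all genes were (edgeR adjusted p 0.0464 and 0.0417). Mup13 had the most counted reads of these rows. It averaged 1970 ± 439 CPM in KO, 878 ± 345 CPM in dHep and 153 ± 100 CPM in WT, as mean ± SD of 3 livers. Mup12 averaged 282 ± 38 CPM in KO, 71.3 ± 22.6 CPM in dHep and 3.31 ± 3.02 CPM in WT, a log2 fold change of 6.42 ± 0.64 and 4.44 ± 0.59 against WT. With these rows added, the family sum was 2.69 higher on the log2 scale in KO than in WT and 1.64 higher in dHep than in WT.

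The bases before the start of transcription show what the copies share there. RefSeq promoters of GRCm38.p6, 250 bases before to 50 after each start, matched 8 of the 10 members; Mup1 and Mup20 were not matched. All 8 held one run of 15 bases, AAAACATTCCACAAA, and it was the longest run common to them. On both strands it was found in 12 of 32851 promoters (0.0365%), and the genes of all 12 were Mup genes, 8 members and 4 others. The letters TATATAA, which many core promoters hold just before the start, stood in 7 of 8 members, all but Mup7, and in 3.24% of all promoters. The start annotated for Mup7 lies only 6 bases after the first base of the run, against 81 to 143 bases in the other 7, so its window covers a different part. The bases from 20 before the run to the annotated start are shown for 4 members that differ in counted level. They run 5′ to 3′, with the run and any TATATAA in capitals.
Mup2 (chr4:60139857-60140016, minus strand): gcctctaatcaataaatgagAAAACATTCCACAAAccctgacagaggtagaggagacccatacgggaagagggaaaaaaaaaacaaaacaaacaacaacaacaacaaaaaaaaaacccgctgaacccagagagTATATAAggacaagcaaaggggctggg
Mup14 (chr4:61303999-61304107, minus strand): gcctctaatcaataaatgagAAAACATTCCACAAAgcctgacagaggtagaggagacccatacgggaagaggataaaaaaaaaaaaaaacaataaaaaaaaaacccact
Mup3 (chr4:62087318-62087424, minus strand): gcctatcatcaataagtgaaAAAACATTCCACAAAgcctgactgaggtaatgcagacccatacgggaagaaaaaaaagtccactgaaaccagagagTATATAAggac
Mup21 (chr4:62150842-62150942, minus strand): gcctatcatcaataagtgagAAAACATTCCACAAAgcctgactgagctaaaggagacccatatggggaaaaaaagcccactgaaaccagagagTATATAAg
In Mup2, Mup9, Mup10 and Mup11 the run and TATATAA were 95 to 98 bases apart, and in Mup14 86 bases apart, with TATATAA after the annotated start and so not shown. In Mup3 and Mup21 the gap was 61 and 58 bases. No member's window held TTCNNNGAA, the palindrome that STAT5 proteins bind (8.3% of all promoters), CAAAGTCCA, a motif of HNF4A (0.475%), or TGTTTAC, a motif of FOXA factors (3.65%), on either strand. Their absence says only that these letters are not in this window. The run stands before Mup2, with 0.517 to 1.04 CPM in KO, as well as before Mup3 at 13415 to 16521 CPM. As 0% of the 75-base stretches of Mup2 are found in no other gene, its CPM does not give its true level.

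Of 23 tested genes of growth hormone signalling and Mup regulation, 8 were called higher and 1 lower in the libraries labelled KO than in WT, with a median log2 fold change of 0.60 against -0.01 over all genes. In dHep 6 were higher and 1 lower, with a median of 0.62 against 0.02. Over all genes, 20.9% were called higher and 22.1% lower in KO than in WT, and 12.4% and 11.9% in dHep than in WT. The list, like those below, was drawn up with earlier results known. Igfals, which encodes the carrier subunit of circulating IGF complexes, rose in both. It averaged 125 ± 26 CPM in KO, 91.8 ± 24.6 CPM in dHep and 32.4 ± 7.7 CPM in WT, with edgeR adjusted p of 0.000565 in KO and 0.00358 in dHep. Igf1, the main growth hormone target in liver, rose too, with a log2 fold change of 0.73 ± 0.16 in KO (edgeR adjusted p 0.00672) and 0.85 ± 0.16 in dHep (0.00664). Foxa3, a liver transcription factor, rose as well, by 1.54 ± 0.28 in KO and 1.31 ± 0.28 in dHep (edgeR adjusted p 0.00266 and 0.0103). Jak2, the kinase of the growth hormone receptor, was the 1 gene called lower in KO, at -0.71 ± 0.21 (edgeR adjusted p 0.0207), and that count was 0 without KO replicate 2, KO replicate 3 or WT replicate 3. The count of higher genes ran from 4 to 10 in KO and from 3 to 8 in dHep when 1 library was left out, with 4 in KO without KO replicate 2, KO replicate 3, WT replicate 2 or WT replicate 3, and 3 in dHep without WT replicate 2.

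Most of the factors named in textbook accounts of Mup control did not pass the test. Stat5b, the main mediator of growth hormone pulses, averaged 50.3 ± 7.79 CPM in KO, 51.1 ± 3.22 CPM in dHep and 45.8 ± 1.67 CPM in WT. Its log2 fold change against WT was 0.14 ± 0.12 in KO and 0.16 ± 0.12 in dHep (edgeR adjusted p 0.375 and 0.362). Hnf4a averaged 609 ± 55.3 CPM in KO, 606 ± 83.9 CPM in dHep and 487 ± 10.3 CPM in WT, with 0.32 ± 0.13 and 0.31 ± 0.13 against WT (edgeR adjusted p 0.0692 and 0.105). Ghr, the growth hormone receptor, was called in KO against WT at 0.37 ± 0.13 (edgeR adjusted p 0.038) and not in dHep, at 0.33 ± 0.13 (0.0885). Zhx2, a regulator of liver genes, differed by -0.07 ± 0.16 in KO and 0.38 ± 0.16 in dHep (edgeR adjusted p 0.747 and 0.105). Stat5a differed by -0.41 ± 0.26 and -0.20 ± 0.26 (0.224 and 0.597 in the same fit). The count of genes called lower in dHep was 0 in 8 of the 9 fits that left out 1 library, all but that without dHep replicate 2.

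Early responders to a growth hormone pulse varied within groups. Cish, a feedback inhibitor of the receptor, ran from 2.96 to 82.7 CPM in KO, from 3.04 to 45.5 CPM in dHep and from 3.26 to 29.4 CPM in WT. Socs2, another, ran from 4.7 to 21 CPM in KO, 3.19 to 21.6 CPM in dHep and 2.07 to 11 CPM in WT. Bcl6, a repressor of STAT5 targets, ran from 24.1 to 100 CPM in KO, 6.22 to 74.1 CPM in dHep and 16.6 to 29.1 CPM in WT. All 3 genes overlapped between all groups, and the edgeR adjusted p against WT was 0.175 to 0.237 in KO and 0.398 to 0.616 in dHep. Between KO and dHep, 0 genes of the list were called higher and 1 lower, where 4.23% and 5.39% of all genes were. The gene called lower was Prlr, the prolactin receptor, at -0.91 ± 0.19 (edgeR adjusted p 0.0185). The count lower was 0 without dHep replicate 2, KO replicate 2 or KO replicate 3.

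Other genes with male-biased expression in mouse liver were examined as a list. Of 28 tested, 22 were called higher and 0 lower in the libraries labelled KO than in WT, 18 higher and 0 lower in dHep than in WT, and 10 higher and 1 lower in KO than in dHep. The medians were 2.03, 1.30 and 0.91 on the log2 scale, beside -0.01, 0.02 and -0.02 over all genes. In these contrasts 20.9%, 12.4% and 4.23% of all genes were called higher, and 22.1%, 11.9% and 5.39% lower. These counts include genes that passed the low-count filter only through knockout libraries, so their calls are not independent of it. Hsd3b5, described below, is counted in all these contrasts. Moxd1 had 0, 0 and 0 reads in WT and 0, 0 and 2 in dHep, and Cspg5 6, 2 and 6 in WT and 10, 8 and 1 in dHep. Both are counted as higher in KO than in WT and than in dHep. The dHep count was 10 without WT replicate 2 and 10 without WT replicate 3. The count of genes higher in KO than in dHep was 3 without KO replicate 2 and 2 without KO replicate 3. Hsd3b5, a male-specific steroid reductase, averaged 604 ± 66.5 CPM in KO, 244 ± 33.9 CPM in dHep and 0.46 ± 0.486 CPM in WT (mean ± SD of 3 livers each). With 27, 7 and 3 reads in WT, it passed the low-count filter through the knockout libraries, so no p-value against WT is given. Cyp7b1, an oxysterol hydroxylase, averaged 575 ± 79.6 CPM in KO, 198 ± 69.6 CPM in dHep and 42.1 ± 18.1 CPM in WT. Serpina1e, a protease inhibitor, ran the other way between the knockouts, at 1141 ± 118 CPM in KO, 3221 ± 654 CPM in dHep and 160 ± 103 CPM in WT, with a log2 fold change of -1.50 ± 0.39 for KO against dHep (edgeR adjusted p 0.0443). It was the 1 gene called lower there, and that count was 0 without dHep replicate 1, dHep replicate 2, WT replicate 2 or any KO library. Selenbp2, a selenium-binding protein, averaged 1425 ± 377 CPM in KO, 392 ± 291 CPM in dHep and 21.5 ± 9.81 CPM in WT.

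Of 28 listed female-biased genes, 18 were tested, and 0 were called higher and 14 lower in KO than in WT, 0 higher and 8 lower in dHep than in WT, and 1 higher and 11 lower in KO than in dHep. The medians were -2.34, -0.92 and -2.17. Of all genes, 20.9%, 12.4% and 4.23% were called higher in these contrasts, and 22.1%, 11.9% and 5.39% lower. The counts lower in KO include Cyp2b9, with 2, 3 and 2 reads in KO, and Cyp2b13, with 1, 1 and 0. Both passed the low-count filter through the other groups, so these calls are not independent of it. In dHep against WT, 10 of the 18 did not pass the test. Cyp2b9, a female-predominant cytochrome P450, averaged 0.115 ± 0.0209 CPM in the libraries labelled KO, 135 ± 44.8 CPM in dHep and 469 ± 120 CPM in WT, with a log2 fold change in dHep against WT of -1.80 ± 0.26 (edgeR adjusted p 0.00201). Cyp2b13, its close relative, averaged 0.0307 ± 0.0266 CPM in KO, 4.09 ± 2.1 CPM in dHep and 40.9 ± 24.4 CPM in WT. Slc22a27, an organic anion transporter, averaged 0.73 ± 0.132 CPM in KO, 3.44 ± 0.624 CPM in dHep and 42.3 ± 14.4 CPM in WT. The 1 gene called higher in KO than in dHep was Ntrk2, a neurotrophin receptor, at 15.8 ± 9.19 CPM in KO, 2.03 ± 1.87 CPM in dHep and 27.2 ± 4.46 CPM in WT (edgeR adjusted p 0.0176 for KO against dHep). Without KO replicate 2 or KO replicate 3, 0 genes were higher and 7 lower in KO than in dHep.

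Relatives of the Mup genes in the lipocalin family split. Of 9 tested, 5 were called higher (Apom, C8g, Ambp, Rbp4 and Ptgds) and 3 lower (Lcn2, Orm2 and Orm3) in KO than in WT, 4 higher (all of these but Ambp) and 2 lower (Lcn2 and Orm2) in dHep than in WT, and 1, Lcn2, higher in KO than in dHep. The shares of all genes called higher in these contrasts were 20.9%, 12.4% and 4.23%, and called lower 22.1%, 11.9% and 5.39%. Ptgds, with 8, 3 and 11 reads in WT, passed the low-count filter through the knockout libraries. Its calls against WT are thus not independent of the filter. In dHep 2 of the lipocalin genes were higher without WT replicate 3, and 4 were lower without dHep replicate 3. Between KO and dHep the count higher was 0 without dHep replicate 1, dHep replicate 2, KO replicate 2 or KO replicate 3, and 5 without dHep replicate 3. The liver carriers Rbp4, for retinol, and Apom, for sphingosine-1-phosphate, rose in both groups, Rbp4 by 0.88 ± 0.20 in KO and 0.89 ± 0.20 in dHep (edgeR adjusted p 0.00732 and 0.0128). Lcn2, an iron-carrier binder made in acute inflammation, averaged 13.8 ± 4.48 CPM in KO, 5.61 ± 1.09 CPM in dHep and 51.4 ± 15.7 CPM in WT, and fell in both. Orm2, an acute-phase glycoprotein, averaged 26.9 ± 5.62 CPM in KO, 17.7 ± 8.49 CPM in dHep and 70.6 ± 14.8 CPM in WT, and fell in both.

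Secreted proteins pass through the endoplasmic reticulum, whose machinery was examined as a list of 30 genes. In the libraries labelled KO 19 were called higher and 0 lower than in WT, with a median of 0.45, where 20.9% and 22.1% of all genes were. In dHep 3 were higher, Ssr4, Sec61b and Spcs2, and 3 lower, Ssr3, Pdia4 and Sec24d, with a median of 0.03. Over all genes 12.4% were higher and 11.9% lower in dHep, so nothing is read from these dHep counts. Between KO and dHep 10 were called higher and 0 lower, where 4.23% and 5.39% of all genes were. The count higher in KO than in dHep was 3 without KO replicate 2, 2 without KO replicate 3, 5 without WT replicate 2, and 6 without WT replicate 3 or dHep replicate 2. The count lower in dHep was 1 without WT replicate 1 and 0 without WT replicate 2 or WT replicate 3, and the count higher was 1 without KO replicate 3, dHep replicate 3 or any WT library and 6 without dHep replicate 2. The KO count was 11 without KO replicate 2, KO replicate 3 or WT replicate 2, and 12 without WT replicate 3. Sec61a1, the pore of the translocon, averaged 215 ± 3.13 CPM in KO, 137 ± 12.1 CPM in dHep and 137 ± 7.51 CPM in WT, with 0.65 ± 0.094 for KO against dHep (edgeR adjusted p 0.0049). Ssr4, a subunit of the translocon-associated complex, rose in both, by 0.83 ± 0.10 in KO and 0.59 ± 0.10 in dHep, while its partner Ssr3 was lower in dHep, at -0.37 ± 0.087 (edgeR adjusted p 0.0152).

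The genes outside the family whose profiles were nearest to the Mup sum were found by the root mean square difference of log2(CPM + 0.5), each profile centred on its own mean, over 9 libraries and the 7581 genes that averaged 10 CPM or more. They were C6 at 0.197, Tspan33 at 0.305, Nudt7 at 0.31, Gna14 at 0.314 and Npr2 at 0.326, where the median gene was at 1.12. C6, a complement component of the membrane attack complex, had 420, 490 and 543 CPM in the libraries labelled KO, 176, 173 and 239 CPM in dHep, and 124, 58.5 and 58.6 CPM in WT. Like the Mup sum, it was highest in WT replicate 1 among controls and did not overlap between groups. This likeness follows in large part from its choice by nearness over the same libraries. Nudt7, a peroxisomal coenzyme A hydrolase, had 871, 1258 and 1248 CPM in KO, 694, 727 and 791 CPM in dHep, and 332, 237 and 221 CPM in WT. C6, Nudt7 and Gna14 are also on the male-biased list. Among the members themselves, Mup3 was at 0.35 from the sum of which it is part.

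**Figure D5:**
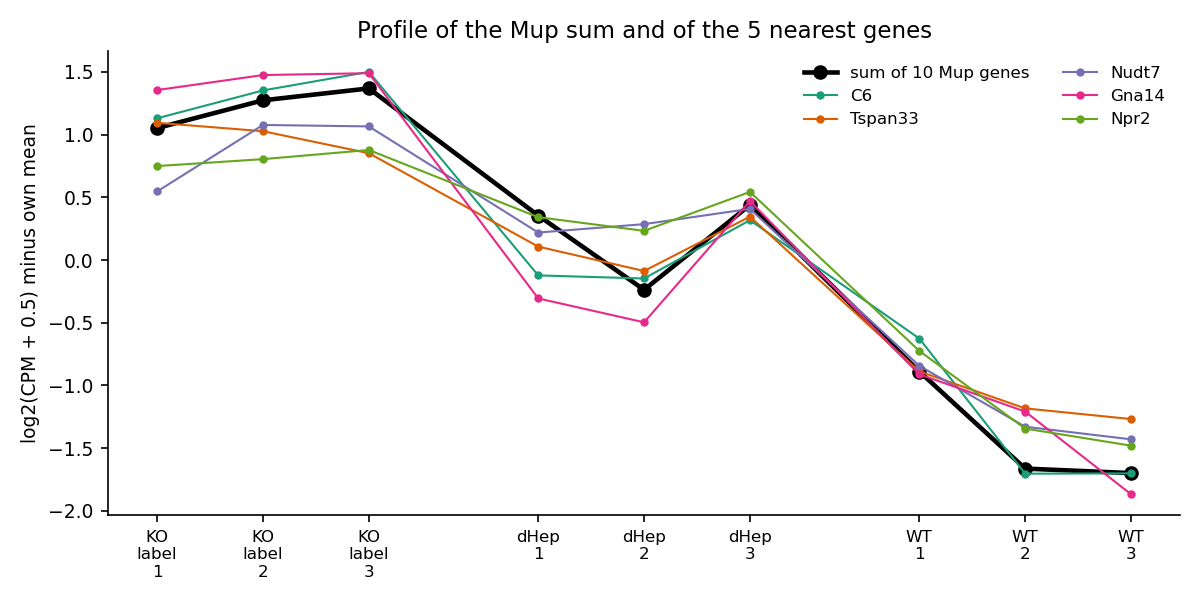
Centred log2(CPM + 0.5) of the sum of 10 Mup genes and of the 5 genes nearest to it, in 3 libraries labelled KO, 3 dHep and 3 WT libraries; lines join libraries only to guide the eye. C6 lies within a root mean square difference of 0.197 of the sum, and WT replicate 1 is the highest control in all 6 profiles. The 5 genes were chosen by nearness to the sum in these same libraries.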

How the data were processed

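The deposited table gives raw gene counts, which the authors made with featureCounts 1.6.2, per the file headers, using strand setting 2 and no option for multi-mapping or overlapping reads, and a deposited Length column of another kind, in bases. Per the submitters' processing notes, reads were checked with FastQC and aligned to mm10 with HISAT2 2.1.0; read length is not given in the sources used here. No column was left unmatched.

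Genes were kept by filterByExpr (minimum count 10, minimum total 15). The quasi-likelihood test of edgeR 4.0.16 in R 4.3.3 was fitted once to the 9 libraries, with TMM factors of 0.883 to 1.10 and a mean per group; p was adjusted over 13141 genes by the Benjamini-Hochberg method. Standard errors were taken as |log2 fold change| over the root of the F statistic. The fit was tested on simulated data. Replicates are livers numbered by mouse, so p-values measure the spread between these livers, and no batch or date is labelled. The 95% intervals of low-count ratios cover counting error only. The members and gene lists were chosen with earlier results of these data known. The named genes were the members, F2rl1, fixed regulators, up to 4 called genes per list, contrast and direction with the smallest p (a part of them printed, and some regulators not reported here), and the 5 nearest profiles; the Xist and Ddx3y counts were added. Coding parts came from the GENCODE M21 transcript nearest in coding length to most members. DESeq2 1.42.0 and limma 3.58.1 were alternatives.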

Additional observations from a re-analysis of the deposited data

How the results depend on the processing

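Depth limited Mup2, Mup9, Mup10 and Mup11, with 2 to 41 WT reads each. These members passed the low-count filter only through the knockout groups and are counted in the calls against WT below. All 10 members were chosen with the differences from WT in view, so kept directions and calls are given as a description. Unplaced reads limited all near-identical members, and 3 libraries per group limited every call. The alternatives were other scalings, with the Mup rows left out among them, other filters, DESeq2, limma voom, the 2 compared groups alone, a replicate block and fits that dropped libraries. For members in KO against WT, 178 of 178 values kept direction and call; in dHep against WT 0 of 176 reversed, 18 lost and 1 gained a call, and in KO against dHep 3 of 178 reversed (Mup10 without dHep replicate 2, without that and WT replicate 1, and without KO replicate 2, at -0.12, -0.12 and -0.04, with a range of -0.12 to 1.04 when 1 library was left out), 20 lost and 4 gained one. The family sum ranged from 1.46 to 1.87 in dHep against WT, 2.51 to 2.91 in KO against WT and 0.83 to 1.17 in KO against dHep when 1 library was left out, and was 2.08 in dHep against WT without WT replicate 1 and dHep replicate 2 together; the other scalings, the arithmetic mean and lengths moved it by less than 1 SD. Members called ranged from 6 to 9, 10 to 10 and 0 to 4 in these 3 comparisons without 1 library.

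Over all genes, 3192 were called in dHep against WT, with 1359 to 4025 when 1 library was left out (1952, 1438 and 1359 without WT replicates 1, 2 and 3). In KO against WT 5653 were called, with 3835 to 6547. In KO against dHep 1264 were called, with 386 to 2809; this count moved by over 1.5 times without dHep replicate 3 (2809), KO replicates 2 and 3 (419 and 386) and WT replicates 1, 2 and 3 (807, 692 and 722), and it was 2068 by DESeq2, 802 by limma voom, 342 with only the 2 compared groups and 495 without WT replicate 1 and dHep replicate 2. The fits without libraries and with 2 groups had fewer samples; the cause for DESeq2 and limma voom was not tested. Deviations of same-numbered libraries from their group means correlated at -0.272 to 0.0273. Differences particular to single libraries can hide a pairing, so these values do not decide whether the numbers pair the livers. With the replicate block, 2781, 5292 and 954 genes and 8, 10 and 2 members were called in dHep against WT, KO against WT and KO against dHep.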
